A study of Mus musculus with 12 samples.

Results

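The genes described here are 9 genes of the contractile actin apparatus, taken by symbol from the 48321 genes listed in the RNAseq data. They are the muscle actins Acta1, Acta2, Actc1 and Actg2, the actin-binding proteins Tagln and Cnn1, the tropomyosins Tpm1 and Tpm2, and the myosin light chain Myl9. The set was proposed because Acta1 was among the genes with the largest decrease in tSema4B cells relative to vector cells after norepinephrine (NE). The values of the 9 genes in that contrast, and in the interaction that contains it, are therefore given as a description with no test.

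RNAseq was performed on 12 libraries of immortalized brown adipocytes, 3 in each of 4 groups. Brown preadipocytes of a WT C57BL/6J mouse had been immortalized with the SV40 large T antigen, which all groups carry, and then transduced with a lentivirus holding either the empty pLEX vector or pLEX with a Flag-tagged truncated Sema4B (tSema4B), a soluble form that mimics the ectodomain released by ADAM17. Both lines were taken through 8 days of differentiation with 3-isobutyl methylxanthine, rosiglitazone, dexamethasone, insulin and triiodothyronine, and then kept for 6 h in serum-free medium with or without 2 μM NE. The groups without NE are called vector unstimulated and tSema4B unstimulated, and those with NE are called vector NE and tSema4B NE. Each construct was represented by a single transduced line, and the 3 libraries of a group are described as technical replicates, so p-values reflect only the spread among libraries of a line, and effects of tSema4B cannot be told apart from other differences between the lines.

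Values are read counts per gene divided by the DESeq2 size factor of the library, called normalized counts, and are given for libraries 1, 2 and 3 of a group in that order. Reads on genes numbered between 2000780 and 5409583 per library, and in each condition the vector libraries were deeper (at least 2841941 reads unstimulated and 4739777 after NE) than the tSema4B libraries (at most 2541747 and 3144946). The transduced gene Sema4b had 116797 ± 6692 normalized counts in the vector line and 281514 ± 31108 in the tSema4B line without stimulation (SD, n = 3), and 74266 ± 8219 against 234276 ± 32374 after NE. Every vector library was below every tSema4B library of its condition, but Sema4b was far above Actb (10932 normalized counts) in the line labelled as carrying the empty vector too. The source of these reads was not tested, so "vector" stands throughout for the libraries so labelled, and every direction between the lines rests on those labels. The paper also reports less oil red staining, glycerol release and Ucp1 mRNA in cells with tSema4B. Adipocyte markers were lower in the libraries labelled tSema4B, with values given below. The share of reads on mitochondrial genes was 13.4% to 16.7% in the vector libraries and 6.91% to 7.89% in the tSema4B libraries. In bulk RNA, fewer cells expressing a gene and less of its RNA per cell cannot be told apart.

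Actin monomers polymerise into filaments that tropomyosins coat and that myosin pulls on, and the muscle actin isoforms are encoded by separate genes. Many genes of this apparatus are targets of the serum response factor SRF, which binds the CArG box, a short A/T-rich element flanked by C and G pairs. When actin assembles into filaments, the falling pool of free monomers releases the myocardin-related cofactors of SRF (Mkl1 and Mkl2), which then enter the nucleus. In the adipose lineage, stress fibres built from these proteins mark preadipocytes and fibroblasts and are taken down as the cells round up and fill with lipid.

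The muscle actin proteins are nearly the same, so the reads that tell the genes apart lie in sequence where the transcripts differ. Over 377 residues Acta1 differs from Actc1 at 4 positions and from Acta2 at 8, while Acta2 differs from Actg2 (376 residues) at 3. The cytoplasmic Actb (375 residues) differs from the 4 muscle actins at 23 to 25 positions. The coding sequences are less alike, with 85.6% identity between Acta1 and Acta2 and 84.3% between Acta2 and Actg2, and in the longest annotated transcript of each muscle actin 0% of the stretches of 100 bases, the length of a read, occur exactly in a transcript of another gene. The same holds for Cnn1, Myl9, Tpm1 and Tpm2, whereas 33.2% of the stretches of Tagln do. Most of these are shared with Gm48529, an antisense gene that overlaps 1241 exon bases of Tagln, and Pcsk7 on the opposite strand overlaps a further 108. The libraries do not mark strand, and the strand setting of the counting is not stated. Reads of Tagln and of an opposite-strand partner therefore cannot be told apart.

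The SRF element itself is shown for the members whose upstream sequence carries it. Promoter sequences from the RefSeq table of GRCm38.p6 were found for 7 of the 9 genes, with no entry for Actg2 and Tagln, and the 250 bases before the start were searched for the CArG box on both strands, which read the same because the motif is a palindrome. A perfect CArG box was found in Acta1, Actc1 and Myl9, that is in 3 of 7 members, against 1.47% of all 32851 windows of the same length in the table. With up to 1 mismatch allowed, boxes were found in 5 of 7, with Acta2 and Tpm1 added, against 18.6% of all windows, and no box was found in Cnn1 or Tpm2. The set was drawn up as contractile actin and SRF-target genes, so more boxes than in all windows were built into the choice. These shares are a description only. The upstream stretches outside annotated exons are printed below 5′ to 3′ on the strand of the gene, with the CArG box in capitals. For Acta2, whose window overlaps an annotated exon, only the 30 bases around each of its 2 boxes with 1 mismatch are given.
Acta1, chr8:123894776-123895025, minus strand: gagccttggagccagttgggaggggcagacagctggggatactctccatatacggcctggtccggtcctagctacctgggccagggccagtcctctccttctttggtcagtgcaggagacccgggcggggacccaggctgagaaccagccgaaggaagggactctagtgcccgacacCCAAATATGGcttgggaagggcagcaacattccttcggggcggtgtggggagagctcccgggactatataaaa
Actc1, chr2:114052888-114053125, minus strand: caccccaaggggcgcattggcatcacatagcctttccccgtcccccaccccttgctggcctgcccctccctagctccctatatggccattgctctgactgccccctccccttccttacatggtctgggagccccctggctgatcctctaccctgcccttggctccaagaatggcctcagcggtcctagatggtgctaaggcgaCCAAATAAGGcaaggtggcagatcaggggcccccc
Myl9, chr2:156775214-156775419, plus strand: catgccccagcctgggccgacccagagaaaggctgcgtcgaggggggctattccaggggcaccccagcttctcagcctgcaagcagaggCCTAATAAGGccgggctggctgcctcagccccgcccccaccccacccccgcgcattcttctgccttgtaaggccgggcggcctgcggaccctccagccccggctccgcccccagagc
Acta2, chr19:34255438-34255467, minus strand: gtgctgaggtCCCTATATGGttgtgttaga
Acta2, chr19:34255388-34255417, minus strand: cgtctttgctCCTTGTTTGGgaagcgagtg

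The perfect box lies 73 to 64 bases before the start in Acta1, 47 to 38 in Actc1 and 161 to 152 in Myl9. The same windows were searched for TATAAA on both strands, which was found in Acta1 alone of the 7 members and in 12.4% of all windows. A match of letters describes the sequence and not binding. Of the 3 genes with the perfect box, Actc1 had no read, Acta1 was lower and Myl9 was higher in unstimulated tSema4B cells, with the values given below.

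Of the muscle actins, Acta2 gave nearly all the reads in every group. Acta2, the smooth muscle α-actin found in myofibroblasts and pericytes as well as in smooth muscle, took 97.2% of the reads of the 4 muscle actins in vector unstimulated cells, 99.8% in tSema4B unstimulated cells, 95.3% in vector NE cells and 100% (1776 of 1776 reads) in tSema4B NE cells. The remaining reads came from Acta1 and Actg2. Actc1, the cardiac α-actin, had 0 reads in all 12 libraries, which allows up to 3 reads of 5409583 in the deepest library and of 2000780 in the shallowest. Such limits, and the counting intervals below, cover counting error only, because PCR copies of a molecule are counted as separate reads.

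Acta1, the skeletal muscle α-actin (ENSMUSG00000031972.5, chromosome 8 from 123891769 to 123894751), was seen in vector cells and almost absent from tSema4B cells. Its normalized counts were 9.77, 16.8 and 24.0 in vector unstimulated cells, from 9, 20 and 22 reads, and 4.77, 0 and 0 in tSema4B unstimulated cells, from 4, 0 and 0 reads. All 3 vector libraries were above all 3 tSema4B libraries. The 51 vector reads against 4 correspond to a ratio of 9.33 after correction for depth (95% counting interval 3.43 to 35.5), and limma gave a difference of -3.23 on the log2 scale (SE 0.774, adjusted p = 0.00643). That difference lay between -4.075 and -1.20 (pseudocount of 10) under the alternatives. Acta1 entered the fit through 5 vector libraries and no tSema4B library, so it had to differ, and this p is no independent support for the difference.

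After NE the vector libraries had 29.6, 20.7 and 21.0 normalized counts of Acta1, from 44, 35 and 32 reads, and the tSema4B libraries had no read. This is the contrast on which Acta1 was selected, and against the value of 3 reads per library its level was at least 7.11-fold lower in tSema4B cells. The fitted difference was -4.61 (SE 0.774) with a pseudocount of 1 and lay between -7.66 (edgeR) and -1.75 (pseudocount of 10) under the alternatives, so its size depends on how a count of 0 is treated. Within vector cells NE changed the fitted level by 0.54 (SE 0.774) and the unstimulated and NE libraries overlapped, and within tSema4B cells the reads went from 4 to 0.

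Actg2, the smooth muscle γ-actin of the gut and other visceral muscle (ENSMUSG00000059430.14, chromosome 6 from 83512905 to 83536265), was likewise seen mainly in vector cells, at a lower level. Vector unstimulated libraries had 16.3, 3.36 and 14.2 normalized counts (15, 4 and 13 reads) and tSema4B unstimulated libraries 0, 1.55 and 0 (0, 1 and 0 reads). The groups did not overlap, the ratio of depth-corrected reads was 23.4 with a wide counting interval of 3.91 to 953, and the log2 difference was -2.94 (SE 0.862, adjusted p = 0.0258). That difference was -0.96 with a pseudocount of 10, -4.29 with edgeR and -4.52 with DESeq2. Actg2 entered the fit through exactly 3 vector libraries and no tSema4B library, so the same limit holds for its p. The call was lost without vector library 1 (adjusted p = 0.136) or 3 (adjusted p = 0.106) and without tSema4B library 1 (adjusted p = 0.0675) or 3 (adjusted p = 0.0601). After NE, Actg2 stood at 8.73, 8.30 and 11.8 in vector cells (13, 14 and 18 reads) and had no read in tSema4B cells, which is at least 2.88-fold lower against the value of 3 reads. The NE change of Actg2 in vector cells was 0.01 on the log2 scale (SE 0.862, adjusted p = 0.999), with overlapping libraries.

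Acta2 (ENSMUSG00000035783.9, chromosome 19 from 34241090 to 34255590) did not differ between the lines beyond the spread of the libraries and was lower after NE. Its normalized counts were 1096, 727 and 1143 in vector unstimulated cells and 1081, 1137 and 1057 in tSema4B unstimulated cells. The groups overlapped, with a log2 difference of 0.17 (SE 0.17, adjusted p = 0.577) that turned to -0.04 without vector library 2. After NE the values were 574, 644 and 777 in vector cells and 731, 461 and 802 in tSema4B cells, with a fitted difference of -0.03 (SE 0.17) between the lines. NE lowered Acta2 in vector cells, with a log2 difference of -0.55 (SE 0.17, adjusted p = 0.0362), and in tSema4B cells, with -0.75 (SE 0.17, adjusted p = 0.00785). In tSema4B cells every NE library was below every unstimulated library, and in vector cells unstimulated library 2 lay inside the NE range. The change in vector cells did not pass without vector unstimulated library 1 (adjusted p = 0.158) or 3 (adjusted p = 0.177), without vector NE library 1 (adjusted p = 0.159) or 2 (adjusted p = 0.103), with DESeq2 (adjusted p = 0.0899) or without the filter on low values (adjusted p = 0.102). The change in tSema4B cells did not pass without tSema4B NE library 2 (-0.51, adjusted p = 0.0584).

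The tropomyosins Tpm1 and Tpm2, which lie along the actin filament and set which partners can bind it, were higher in tSema4B cells. Tpm1 (ENSMUSG00000032366.15, chromosome 9 from 67022590 to 67049406) had 641, 599 and 681 normalized counts in vector unstimulated cells and 1064, 999 and 1014 in tSema4B unstimulated cells. The groups did not overlap, and the difference of 0.68 (SE 0.101, adjusted p = 4.89e-05), a 1.60-fold rise, exceeded the spread between libraries. After NE Tpm1 had 567, 589 and 685 in vector cells and 890, 718 and 811 in tSema4B cells, again without overlap, with a fitted difference of 0.39 (SE 0.101). The NE change was -0.06 (SE 0.101, adjusted p = 0.769) in vector cells, and NE lowered Tpm1 in tSema4B cells by a change of -0.35 (SE 0.101, adjusted p = 0.0385), which did not pass under 9 of 17 alternatives, among them leaving out any tSema4B unstimulated library (adjusted p = 0.116, 0.0628 and 0.0754 for libraries 1, 2 and 3) or tSema4B NE library 2 (adjusted p = 0.167) or 3 (adjusted p = 0.0756).

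Tpm2 (ENSMUSG00000028464.16, chromosome 4 from 43514711 to 43523765), a second tropomyosin gene of muscle and fibroblasts, followed Tpm1 closely. It had 396, 335 and 358 normalized counts in vector unstimulated cells against 471, 554 and 564 in tSema4B unstimulated cells, with no overlap and a log2 difference of 0.54 (SE 0.124, adjusted p = 0.0045). After NE the values were 257, 309 and 296 in vector cells and 395, 339 and 429 in tSema4B cells, a fitted difference of 0.43 (SE 0.124) with no overlap. The NE change was -0.34 (SE 0.124, adjusted p = 0.083) in vector cells, where every NE library was below every unstimulated one without passing the test, and -0.45 (SE 0.124, adjusted p = 0.0303) in tSema4B cells. The second of these was lost under 6 of 17 alternatives, among them leaving out tSema4B unstimulated library 2 (adjusted p = 0.0916) or 3 (adjusted p = 0.102) or tSema4B NE library 1 (adjusted p = 0.0513) or 2 (adjusted p = 0.136).

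Myl9, the regulatory light chain whose phosphorylation by Mylk switches on smooth muscle and non-muscle myosin (ENSMUSG00000067818.6, chromosome 2 from 156775420 to 156781658), was higher in unstimulated tSema4B cells and lower after NE in both lines. Vector unstimulated libraries had 115, 64.7 and 100.2 normalized counts and tSema4B unstimulated libraries 145, 170.2 and 169.8. The groups did not overlap and the difference of 0.82 (SE 0.242, adjusted p = 0.026) was 1.77-fold, but it did not pass without vector library 2 (0.58, adjusted p = 0.171), tSema4B library 2 (adjusted p = 0.0766) or tSema4B library 3 (adjusted p = 0.0725). After NE the vector libraries had 55.8, 59.3 and 38.0 and the tSema4B libraries 72.9, 51.1 and 59.5, which overlapped. The NE change was -0.84 (SE 0.242, adjusted p = 0.025) in vector cells and -1.40 (SE 0.242, adjusted p = 0.000715) in tSema4B cells, and in both lines every NE library was below every unstimulated one. The change in vector cells was lost without vector unstimulated library 1 (adjusted p = 0.143) or 3 (adjusted p = 0.0955) or vector NE library 3 (adjusted p = 0.158), whereas that in tSema4B cells passed under all 17 alternatives run.

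Tagln, also called SM22α, an actin cross-linker and an early marker of smooth muscle and myofibroblasts (ENSMUSG00000032085.5, chromosome 9 from 45929619 to 45936058), did not differ between the unstimulated lines beyond the spread of the libraries. It had 162, 134 and 188 normalized counts in vector unstimulated cells and 193, 181 and 123 in tSema4B unstimulated cells, with a log2 difference of 0.03 (SE 0.203, adjusted p = 0.956). After NE the vector libraries had 98.8, 119 and 147 and the tSema4B libraries 64.3, 68.2 and 72.7. All 3 tSema4B NE libraries were below every other library of the series. NE changed Tagln by -1.24 (SE 0.203, adjusted p = 0.000422) in tSema4B cells, a 2.36-fold fall that passed under all 17 alternatives, and by -0.41 (SE 0.203, adjusted p = 0.225) in vector cells. The difference between the lines after NE was -0.80 (SE 0.203) and the difference of the NE changes was -0.83 (SE 0.288), both given without a test. Gm48529, the antisense gene over Tagln, is no row of the table.

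Cnn1, the calponin of smooth muscle that inhibits the myosin ATPase (ENSMUSG00000001349.5, chromosome 9 from 22099216 to 22109630), was near the limit of detection. Vector unstimulated libraries had 22.8, 1.68 and 7.62 normalized counts (21, 2 and 7 reads) and tSema4B unstimulated libraries 13.1, 13.9 and 8.21 (11, 9 and 6 reads). After NE the vector libraries had 5.38, 11.3 and 4.58 (8, 19 and 7 reads) and the tSema4B libraries 22.5, 16.1 and 17.2 (21, 17 and 13 reads). Every tSema4B NE library was above every vector NE library, with a fitted difference of 1.36 (SE 0.642). None of the 3 tests of Cnn1 passed, with log2 fold changes of 0.61 (SE 0.642, adjusted p = 0.606) between the unstimulated lines, -0.11 (SE 0.642, adjusted p = 0.945) for NE in vector cells and 0.64 (SE 0.642, adjusted p = 0.646) for NE in tSema4B cells. The first of these rested on vector library 2 and was -0.20 without it.

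**Figure D1:**
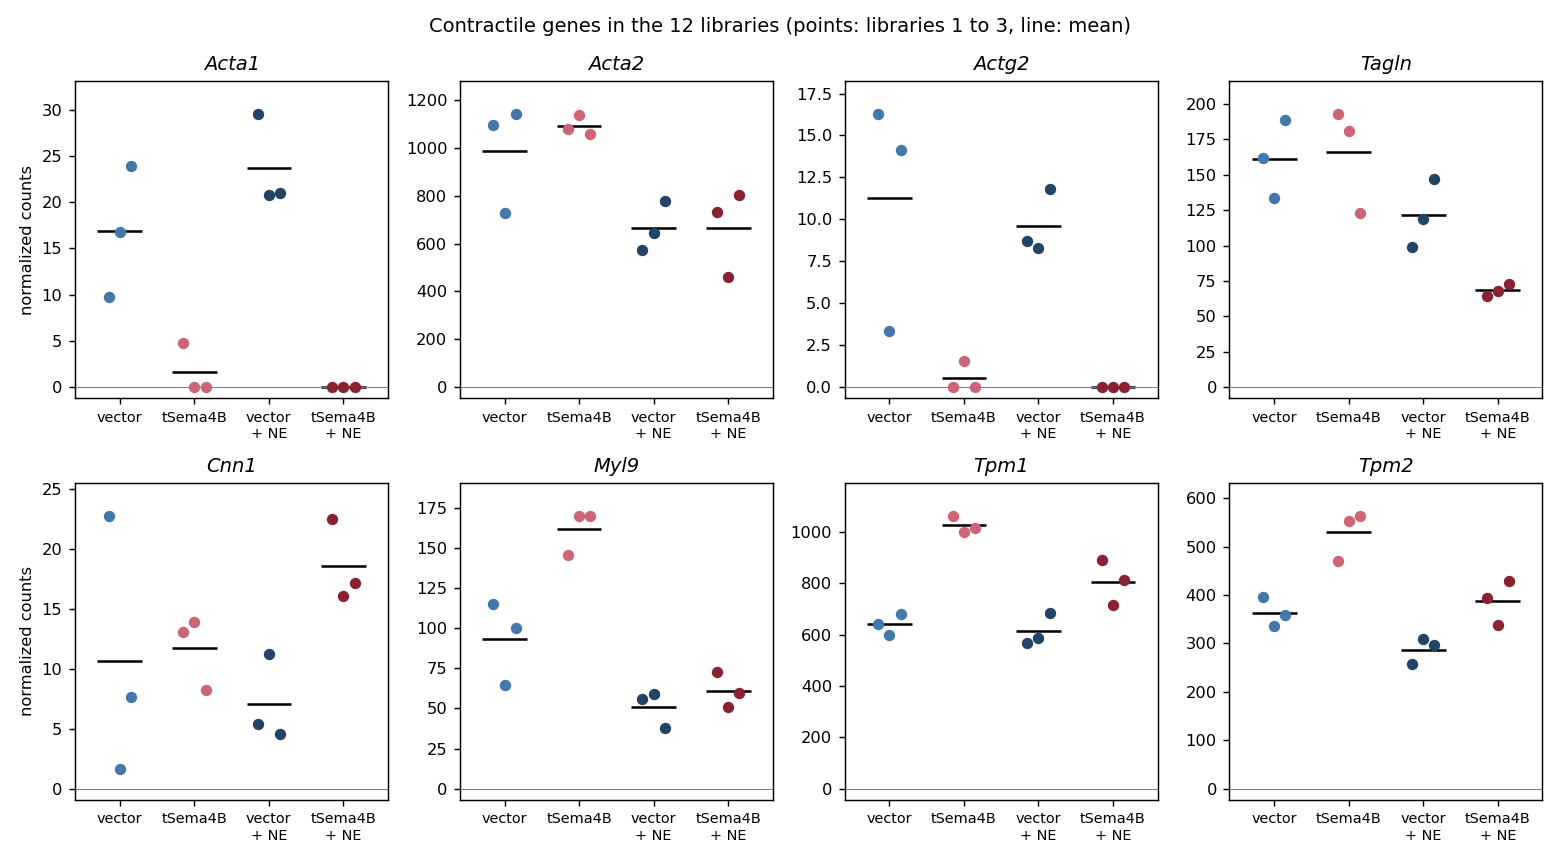
Normalized counts (vertical axes from 0, scaled per gene) of the 8 contractile genes with a read, in the 3 libraries of each of the 4 groups (points, libraries 1 to 3 from left to right) with the group mean (line). Acta1 and Actg2 were at 0 in all 3 tSema4B NE libraries, Tpm1 and Tpm2 were higher in tSema4B libraries in both conditions, and Tagln was lowest in the tSema4B NE libraries. Actc1, with 0 reads, is not drawn.

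The fold changes between the unstimulated lines took in no library of the contrast on which Acta1 was selected. The filter and the variance of the fit, however, used all 12 libraries. With only the 6 libraries compared in the fit, the adjusted p was 0.0155 for Acta1 and 0.0400 for Actg2. Of the 9 members, 8 had at least 10 normalized counts in at least 3 libraries and were tested, while Actc1 was not. Of these, 3 rose (Tpm1, Tpm2 and Myl9) and 2 fell (Acta1 and Actg2) with an adjusted p no higher than 0.05, where 13.0% of the 11998 genes tested passed, and 3 did not pass (Acta2, Tagln and Cnn1). Called changes, which must in addition be 1 or more on the log2 scale in either direction, were found for Acta1 and Actg2, both lower, where 3.82% of all genes were called. The libraries of the lines did not overlap for 5 members (3 higher and 2 lower), which was so for 29.4% of all genes. For the reason given above, the count of Acta1 and Actg2 gives no support.

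**Figure D2:**
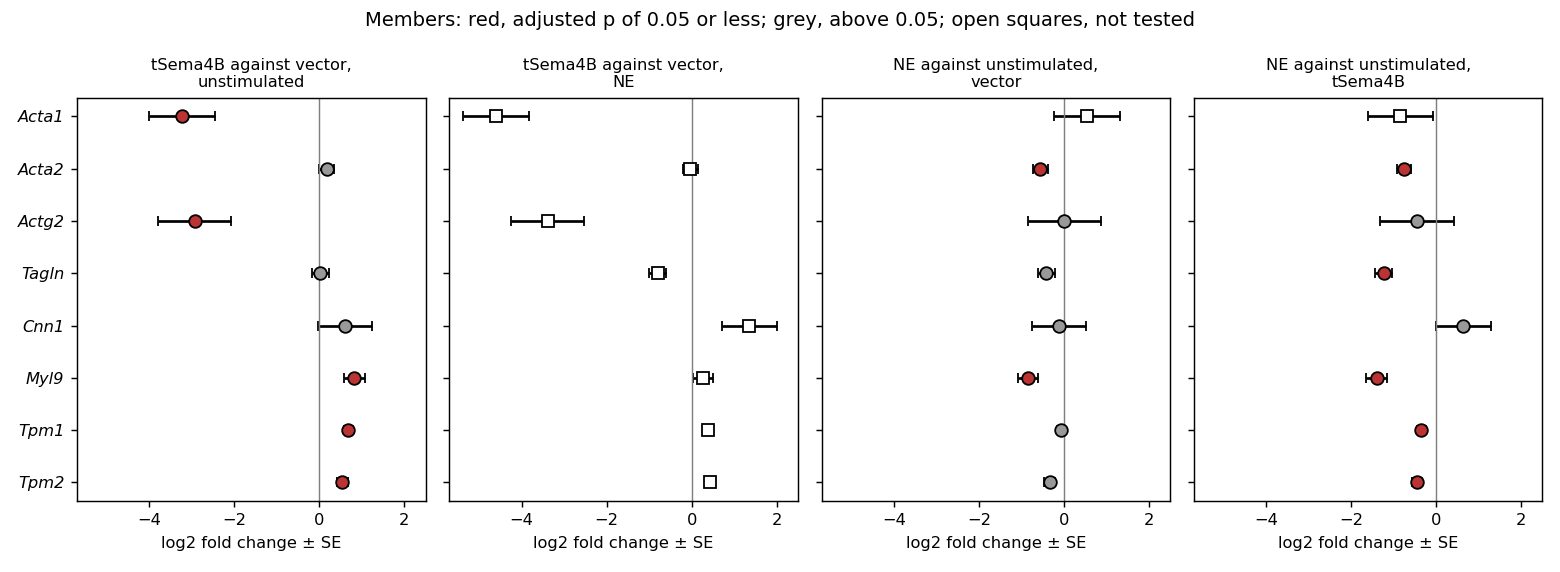
Log2 fold changes ± SE (horizontal axis) of the 8 members in the fit, in 4 panels for the 4 comparisons. Red points passed at an adjusted p of 0.05 or less, grey points did not, and open squares were not tested because the genes were chosen on that contrast or, for Acta1 with NE, on libraries of that contrast. Acta1 and Actg2 stand apart at -3.23 and -2.94 in the unstimulated lines, while the other 6 members lie between 0.03 and 0.82.

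The NE comparisons share libraries with the contrast on which Acta1 was selected, and Acta1 was left without a test in them. In vector cells, Acta2 and Myl9 fell and the other 5 of the 7 members tested did not pass, where 11.6% of all genes passed. In tSema4B cells, Acta2, Tagln, Myl9, Tpm1 and Tpm2 fell, that is 5 of 7, where 6.25% of all genes passed. Called changes were 0 in vector cells (2.63% of all genes, with limma, 0 members also with edgeR and DESeq2 on whole reads, and 3 of 7 members at an unadjusted p under 0.05) and 2 in tSema4B cells, Tagln and Myl9, both lower (2.07% of all genes). NE libraries did not overlap unstimulated ones for 2 members in vector cells, both lower, against 33.3% of all genes, and for 6 members in tSema4B cells, 5 lower and Cnn1 higher, against 20.7% of all genes.

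In the contrast that chose Acta1, tSema4B against vector after NE, the members divided into Acta1, Actg2 and Tagln, lower in every tSema4B library, Tpm1, Tpm2 and Cnn1, higher in every one, and Acta2 and Myl9, which overlapped. Among all genes, 37.7% did not overlap in this contrast, 21.0% passed at the adjusted p and 5.76% were called, and no reading of the members is made from these shares. The NE change was more negative in tSema4B cells than in vector cells for 7 of the 8 members in the fit, Cnn1 being the exception, and for 5 of 8 without vector unstimulated library 2 and 6 of 8 without tSema4B NE library 2. The differences with all libraries were -0.83 (SE 0.288) for Tagln, -0.55 (SE 0.342) for Myl9, -0.29 (SE 0.143) for Tpm1, -0.20 (SE 0.24) for Acta2 and -0.11 (SE 0.175) for Tpm2. They were -1.38 (SE 1.09) for Acta1, on which the set was chosen, and -0.46 (SE 1.22) for Actg2, both without a read in tSema4B NE cells. The median difference over all genes was 0.0076. The share of all genes with a negative difference was not computed, so no reading is made of the count of members. In the interaction 3 of all genes tested passed at the adjusted p, or 0.0250%.

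Per kilobase of the longest transcript, the levels of the members kept a similar order in all groups. In vector unstimulated cells the mean normalized counts per kilobase were 486 for Acta2, 222 for Tpm1, 167 for Tpm2, 101 for Tagln, 82.8 for Myl9, 11.7 for Acta1, 8.45 for Actg2, 4.50 for Cnn1 and 0 for Actc1. Neighbours whose ranges over the 3 libraries overlapped there were Tagln and Myl9, Acta1 and Actg2, and Actg2 and Cnn1. In tSema4B unstimulated cells Myl9 (143) stood above Tagln (104) with no overlap, and Cnn1 (4.93) stood above Acta1 (1.10). After NE, Acta2 (327), Tpm1 (212), Tpm2 (132), Tagln (76.2) and Myl9 (45.2) kept the vector order, while in tSema4B cells Acta2 (327) and Tpm1 (279) overlapped. For scale, the cytoplasmic Actb was at 5694 per kilobase in vector unstimulated cells. Actg1, the other cytoplasmic actin, was listed at 4.55 per kilobase, but 51.1% of the read-length stretches of its transcript also occur in 6 other genes, most of them in Gm12715, so its level is uncertain.

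Library 2 of the vector unstimulated group was the lowest of its group in 7 of the 8 members with a read, all but Acta1. Over all genes tested it was the lowest of its group in 33.8%. Library 2 of the tSema4B NE group was likewise the lowest for 5 of the 8, with 2 more at 0 in all libraries, and lowest for 31.3% of all genes. Without the first of these libraries NE lowered Myl9 in vector cells by a called change of -1.09 (adjusted p = 0.00952) and Acta2 by -0.76 (adjusted p = 0.00709). Tpm1 and Tpm2 passed between the unstimulated lines whichever of the 6 libraries was left out.

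**Figure D3:**
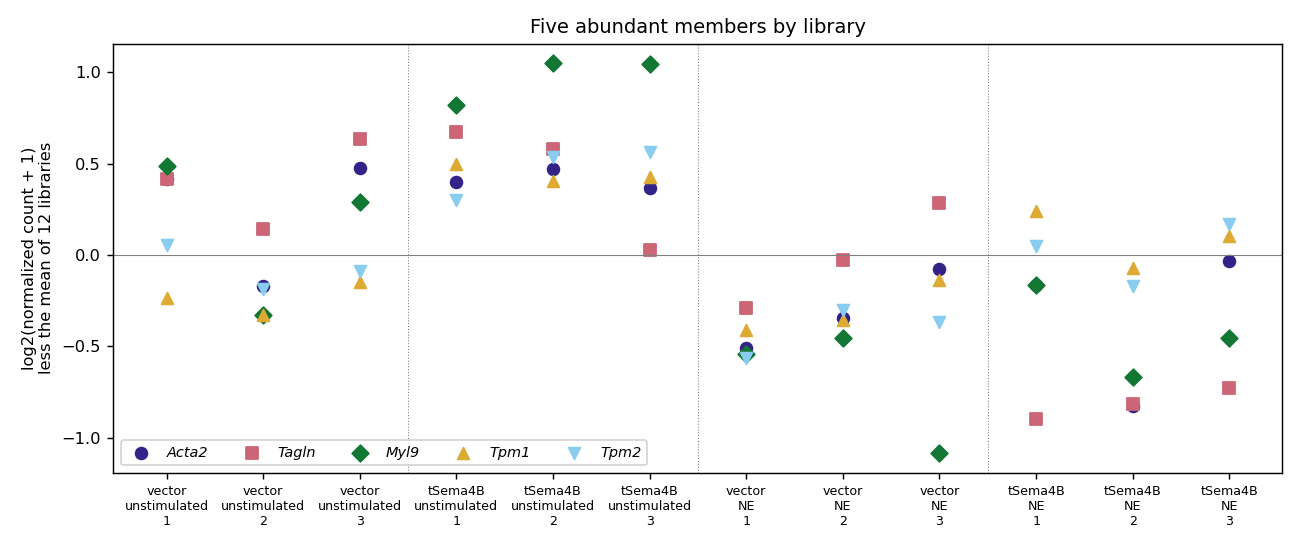
Level of the 5 abundant members (colours and symbols) in each of the 12 libraries (horizontal axis, grouped by condition), as log2(normalized count + 1) less the mean of the gene over all libraries. All 5 genes are lower in vector unstimulated library 2 than in the other libraries of its group, and Acta2, Myl9, Tpm1 and Tpm2 are lowest in library 2 of the tSema4B NE group.

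The genes with profiles nearest to those of the 5 members above 50 normalized counts were found by the root mean square difference of log2 levels over the 12 libraries, each gene less its own mean. Among the members, Tpm1 and Tpm2 were the closest pair (0.161), followed by Acta2 and Tpm2 (0.305) and by Acta2 with Tagln and with Tpm1 (0.369 each). Genes outside the set came nearer to each. For Tpm1 they were Glmp (0.085), Fgfr1 (0.0998) and Ctsa (0.103), for Tpm2 Trim2 (0.0913), Dap (0.117) and Cd81 (0.119), and for Acta2 Zfp608 (0.143), Gm6652 (0.185) and Diaph3 (0.193), the last of these a nucleator of actin filaments. For Tagln they were Id2 (0.243), Aldh3a1 (0.262) and Col15a1 (0.276), and for Myl9 Trio (0.217), Enpp2 (0.240) and F3 (0.288). Acta1 was far from all 5, with differences between 1.91 and 2.42. These differences took in the libraries on which Acta1 was selected, among them libraries without a read of it, so no reading is made of them. Actg2 and Cnn1, which also had few reads, were likewise farther from each of the 5 than the 5 were from one another.

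The other genes of the pathway were taken from 7 lists with 84 genes, of which 74 were tested, and 6 of the lists are described singly. Between the unstimulated lines 16 were higher in tSema4B cells and 3 lower at the adjusted p, or 25.7% of those tested against 13.0% of all genes, and the median log2 fold change was 0.28 against -0.0025 over all genes. SRF and its cofactors gave 3 of 8 higher and 0 lower. They were Mkl1, the cofactor that free actin holds in the cytoplasm (111 ± 35.7 to 194 ± 26.9, log2 fold change 0.83, SE 0.22, adjusted p = 0.013), Fhl2, a LIM protein that binds SRF (0.94, SE 0.203, adjusted p = 0.00282), and Elk3, an ETS partner of SRF (0.75, SE 0.236, adjusted p = 0.0381). Mkl1 did not pass without vector library 3 (adjusted p = 0.0959) or tSema4B library 1 (adjusted p = 0.0655), and Elk3 did not without vector library 1 (adjusted p = 0.0632) or 2 (adjusted p = 0.198) or tSema4B library 1 (adjusted p = 0.104) or 2 (adjusted p = 0.0986). The cytoskeletal SRF targets gave 8 of 19 higher and 1 lower. Examples were Lima1, which stabilises actin filaments (376 ± 36.0 to 684 ± 28.6, 0.86, SE 0.103, adjusted p = 2.74e-06), and the matricellular Cyr61 (0.72, SE 0.16, adjusted p = 0.00325), whereas Fhl1, a LIM protein of muscle, was lower (-0.95, SE 0.19, adjusted p = 0.00138).

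Between the unstimulated lines, where 13.0% of all genes passed, 2 of 10 smooth muscle contractile genes tested were higher in tSema4B cells. They were Itga8, an integrin chain of smooth muscle and fibroblasts, by a called 2.25 (SE 0.502, adjusted p = 0.0036), and Cald1, caldesmon, by 0.62 (SE 0.0901, adjusted p = 3.46e-05). Cald1 is also on the list of cytoskeletal SRF targets and is counted in both lists. Of 7 immediate-early SRF targets 1 was higher, Egr1 (0.68, SE 0.11, adjusted p = 0.000137). In actin monomer handling 2 of 12 were higher, Tmsb4x, the thymosin that holds free actin monomers (0.89, SE 0.156, adjusted p = 0.000348), and Gsn, gelsolin, which severs filaments (0.31, SE 0.0752, adjusted p = 0.00803), which did not pass at equal totals over nuclear genes (0.22, adjusted p = 0.0598). The counts of these lists lie near the share of all genes, and no reading is made from them. For the 5 other tropomyosins and myosin light chains tested the median log2 fold change was 0.09.

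With NE in vector cells 6 of the 74 listed genes were higher and 10 lower, or 21.6% against 11.6% of all genes. In tSema4B cells 4 were higher and 12 lower, or 21.6% against 6.25% of all genes. Of these, 3 were called higher and 0 lower in vector cells and 2 higher and 1 lower in tSema4B cells. Among all genes 2.63% were called in vector cells (199 higher and 117 lower). In tSema4B cells 2.07% were (157 higher and 91 lower). No reading is made from the few calls of listed genes. The cytoskeletal targets gave 6 lower and 0 higher in vector cells and 4 lower and 0 higher in tSema4B cells. Among these, Csrp1, a LIM protein of actin bundles, changed by -0.65 (SE 0.156, adjusted p = 0.00856) and -0.69 (SE 0.156, adjusted p = 0.00786), and Tln1, talin, by -0.53 (SE 0.121, adjusted p = 0.00585) and -0.53 (SE 0.121, adjusted p = 0.00864). In tSema4B cells Csrp1 did not pass without unstimulated library 1 (adjusted p = 0.0518), nor Tln1 without unstimulated library 2 (adjusted p = 0.058). Of the cofactors, Fhl2 fell in tSema4B cells (-0.88, SE 0.203, adjusted p = 0.00926, or 0.064 without tSema4B NE library 2), as did Elk3 (-0.80, SE 0.236, adjusted p = 0.0448), which did not pass when any of the 6 tSema4B libraries was left out (adjusted p = 0.0596 to 0.117). Gsn fell in both lines, by changes of -0.65 (SE 0.0752, adjusted p = 4.18e-06) and -0.46 (SE 0.0752, adjusted p = 0.000405).

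The immediate-early genes moved in both directions with NE. Junb, an AP-1 subunit, rose from 160 ± 15.4 to 481 ± 12.5 in vector cells (1.59, SE 0.136, adjusted p = 8.27e-08) and from 152 ± 24.7 to 357 ± 10.7 in tSema4B cells (1.24, SE 0.136, adjusted p = 2.93e-06), while Egr2, a zinc finger factor, fell in both (-0.92, SE 0.19, adjusted p = 0.0027, and -0.81, SE 0.19, adjusted p = 0.0101, the latter 0.0505 without tSema4B unstimulated library 2). Nr4a1, an orphan nuclear receptor, rose from 27.1 ± 13.1 to 84.4 ± 5.81 in vector cells (1.71, SE 0.364, adjusted p = 0.00338). In tSema4B cells it stood at 31.3 ± 6.78 and 28.8 ± 11.9, and the difference between the NE changes of the lines was -1.88 (SE 0.514) and did not pass (adjusted p = 0.181). Tpm4, a cytoplasmic tropomyosin, rose by 0.44 (SE 0.0694, adjusted p = 0.000306) in tSema4B cells and by 0.26 (SE 0.0694, adjusted p = 0.0176) in vector cells. The rise in vector cells did not pass without unstimulated library 2 (adjusted p = 0.0699) or 3 (adjusted p = 0.0606) or NE library 3 (adjusted p = 0.0896). Lmod1, a smooth muscle actin nucleator, fell in tSema4B cells by a called -1.69 (SE 0.505, adjusted p = 0.0486) that was not kept under 12 of 16 alternatives.

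After NE, 20 of the 74 listed genes were higher in tSema4B than in vector cells and 5 lower, or 33.8% against 21.0% of all genes. Itga8 (2.21, SE 0.502, adjusted p = 0.00301) and Synpo2, an actin-bundling protein of smooth muscle (1.51, SE 0.47, adjusted p = 0.0256), were called higher. Synpo2 did not pass without vector NE library 3 (0.85, adjusted p = 0.188) or tSema4B NE library 1 (adjusted p = 0.102) or 3 (adjusted p = 0.0501). Fhl1 (-1.28, SE 0.19, adjusted p = 4.15e-05) and Nr4a1 (-1.60, SE 0.364, adjusted p = 0.00303) were called lower among the genes of the 6 lists described.

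**Figure D4:**
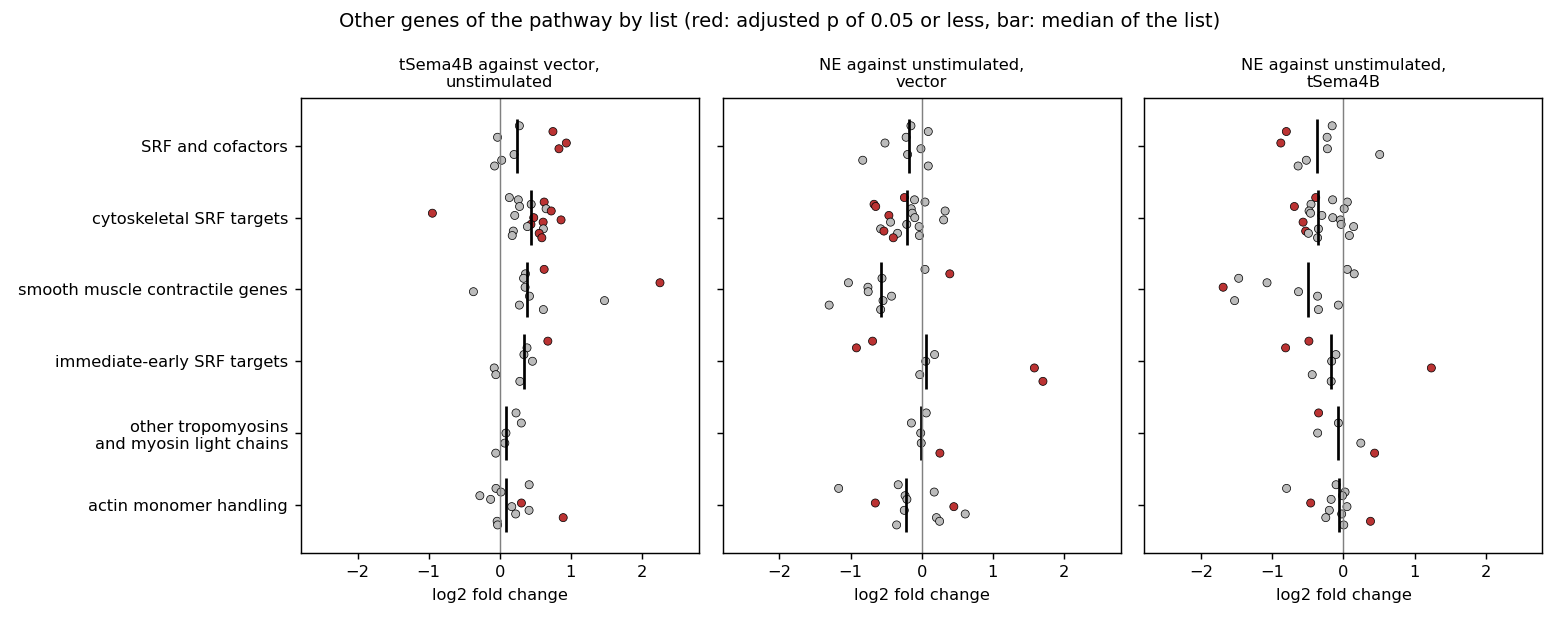
Log2 fold changes (horizontal axis) of the tested genes of 6 pathway lists (rows), in 3 panels for the unstimulated lines and for NE in each line. Each point is a gene, red where its adjusted p was no higher than 0.05, and the bar is the median of the list. The medians of the cytoskeletal SRF targets are 0.44 between the unstimulated lines and -0.21 and -0.35 for NE in vector and tSema4B cells.

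The markers of cell types that could carry these genes were measured in the same libraries. All 12 adipocyte markers were called lower in tSema4B cells in both conditions, with a summed level of 42768 to 49324 normalized counts in vector and 7572 to 10262 in tSema4B unstimulated libraries. Of 11 preadipocyte and fibroblast markers tested, 8 were higher in tSema4B unstimulated cells and 10 after NE, and their summed level was 28661 to 29603 against 46473 to 53183 without stimulation. Whether these levels have a part in the differences of Tpm1, Tpm2 and Myl9 between the lines was not tested. Of 8 pericyte markers 6 had a read in the unstimulated groups, with sums of 773 to 797 in vector and 1261 to 1445 in tSema4B libraries and with Abcc9 and Higd1b at 0. Only 4 of them were tested, and between the unstimulated lines 2 were above 0 and 2 below. Of these, 1 passed at the adjusted p, higher in tSema4B cells, and 0 were called, so the sums do not stand for the list.

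Markers of striated muscle were at or near 0 in every group. Of 14 skeletal muscle markers 5 had a read anywhere, the sum was at most 18.4 normalized counts in any library, and Myod1, Myog, Myf5, Myf6 and Ckm had no read. Of 9 cardiac markers 4 had a read, with a sum of at most 12.4 and with Myh6 and Myh7 at 0. Neither list had a gene that passed the filter. Acta1 was seen in vector libraries that held no read of Myod1, Myog, Myf5 or Myf6. In the vector NE libraries, where Acta1 stood at 20.7 to 29.6 normalized counts, the skeletal marker sums were 8.06 to 18.4. The source of the Acta1 reads was not tested. Of 7 brown adipocyte markers tested, 5 were called lower in tSema4B cells in both conditions, with sums of 248 to 307 against 56.0 to 82.1 without stimulation. Ucp1 had no read in tSema4B unstimulated cells but had reads in the other groups, and Dio2 had none in any group.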

How the data were processed

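RNA was amplified by SMART-Seq2, which does not mark strand, tagmented with Nextera XT and sequenced as single reads of 100 bases. Per the submitters' processing notes and the study's methods, the authors aligned reads with STAR 2.7.9a to mm10 (GRCm38.p4), counted them per gene with HTSeq and normalized with DESeq2. The gene annotation, strand setting and treatment of multiply mapped reads are not given in the sources used here. The deposited signal values are gene counts divided by a size factor per library, and whole reads were recovered from them (100% of values within 0.01 of a whole read). Group labels come from the sample titles.

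The 11998 of 48321 genes that reached 10 normalized counts in 3 or more of 12 libraries were fitted with limma 3.58.1 (R 4.3.3, trended variance) on log2(normalized count + 1), in a single model of the 4 groups, and p-values were adjusted by Benjamini and Hochberg over all of them. This scale understates changes of low genes. Calls required both an adjusted p no higher than 0.05 and a log2 change of 1 or more in either direction. The members and lists were chosen with earlier results of these data known. Named genes were all members, Sema4b, up to 3 genes per list and comparison with the largest change among those called or, where fewer were called, those that passed, and the 3 genes nearest in profile to each member with a mean of 50 or more. Actb, Actg1 and single markers were named in addition, after their values were seen, as was Nr4a1 in tSema4B cells. Alternatives were pseudocounts of 0.5 and 10, no filter or a filter at 50, scaling to equal totals over all or nuclear genes, quantile normalization, edgeR 4.0.16 and DESeq2 1.42.0 on whole reads, the 6 libraries compared alone, a replicate block and leaving out each library. Genomic positions, overlaps and lengths come from GENCODE on GRCm38 and upstream sequences from RefSeq on GRCm38.p6. Results of 1 of the pathway lists are not reported here, though its genes are in the totals over all lists.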

Additional observations from a re-analysis of the deposited data

How the results depend on the processing

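Of 366 alternative values of tested members that have an adjusted p, 317 kept direction and side of the threshold, 33 no longer passed, 1 passed anew (Tpm2 with NE in vector cells at equal totals over all genes, adjusted p = 0.0446) and 15 changed direction, as did Actg2 with NE in vector cells under DESeq2, which gave it no adjusted p. The 2 members called between the unstimulated lines became 1 with a pseudocount of 10 or quantile normalization, 0 with a filter at 50 that removes both genes, 5 by adjusted p alone and 1 to 2 without single libraries. The 2 listed genes called there became 19 by adjusted p alone and 2 to 4 without single libraries. With NE in vector cells, 0 members became 2 by adjusted p alone and 0 to 1 without single libraries, and 3 listed genes became 16 by adjusted p alone. With NE in tSema4B cells, 2 members became 5 and 3 listed genes 16 by adjusted p alone, and the listed genes 1 when only the 6 libraries compared were used. The 4 members below 0 between the lines after NE became 2 with the filter at 50. All genes called with NE in tSema4B cells numbered 248, or 157 with those 6 libraries alone, and in the interaction 3 passed at the adjusted p alone, or 103 with DESeq2 and 0 with no filter. Scaling to equal totals over all genes moved the split of all genes called between the lines after NE from 244 higher and 447 lower to 346 and 362. It shifted the median log2 fold change of that contrast by 0.094, whereas equal totals over nuclear genes shifted it by -0.050.

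Small changes that did not pass turned. Between the unstimulated lines, Tagln was -0.0607 at equal nuclear totals, and leaving out single libraries gave -0.10 to 0.23 for Tagln (below 0 without vector library 2, tSema4B library 1 or tSema4B library 2), -0.0362 to 0.29 for Acta2 and -0.20 to 1.38 for Cnn1, the last pair below 0 without vector library 2. With NE in vector cells, Actg2 was -0.0615 with a pseudocount of 10, -0.0347 and -0.0079 at equal totals over all or nuclear genes, -0.19 with edgeR, -0.22 with DESeq2, and -0.62 to 0.37 without single libraries (below 0 without unstimulated library 2 or NE library 3), while Cnn1 was -0.92 to 0.66 (above 0 without unstimulated library 1, NE library 1 or NE library 3). The causes were not tested.

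The replicate numbers did not pair the samples, since over 18 pairs of same-numbered libraries the correlation of deviations lay between -0.047 and 0.0282. A replicate block changed no call of a member (Acta1 adjusted p = 0.00992 and Actg2 adjusted p = 0.0388 between the unstimulated lines), and 2 listed genes instead of 3 were called with NE in tSema4B cells. Depth limits Acta1, Actg2, Cnn1 and Actc1, which had at most 44 reads in any library.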
